A study of Homo sapiens with 12 samples.

Results

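The 40 genes described here act in mitosis and in the G2 phase that precedes it. They were chosen by name as mitotic cyclins and kinases, spindle checkpoint, kinetochore, spindle and cytokinesis genes. All 40 were among the 26485 gene symbols counted, and all 40 were among the 13619 with enough reads to be tested. Poly(A) RNA was sequenced from cultures of DLD1, an established human colon cancer cell line, that had been given the vehicle DMSO or 10 µM of a ligand of the transcription factor AHR, the aryl hydrocarbon receptor, and were harvested 1 h later. The ligands were the dioxin TCDD, a strong agonist, kynurenine (Kyn), made in the body from tryptophan and also an agonist, and the antagonist CH223191 (CH). There were 12 libraries, 3 for each of the 4 treatments, and no label names a genetic change of the line. Separate cultures are not stated for the libraries of a treatment, so p-values measure the spread between libraries, which may be technical.

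Mitotic entry is driven by CDK1 bound to B-type cyclins, and exit by the anaphase-promoting complex (APC/C), a ubiquitin ligase that CDC20 activates once the spindle checkpoint is satisfied. Transcripts of these genes accumulate through G2 and fall after division, under the control of B-MYB, FOXM1 and the MuvB complexes. In proliferating colon epithelium and in colon cancer lines they are read as markers of dividing cells. In RNA from a whole culture, a change in the share of cells in G2 or mitosis and a change of RNA per cell cannot be told apart.

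Many mitotic promoters carry a CCAAT box, the letters bound by NF-Y, and a cell cycle genes homology region (CHR), TTTGAA or its variant TTCGAA, to which MuvB complexes bind. RefSeq promoter windows of GRCh38.p14, from 250 bases before to 50 bases after a start, matched 33 of the 40 members with 42 windows. The stretches below are the 130 bases just before 1 start each of CCNB2, PLK1, ANLN and MKI67, shown because these members moved in different directions (values below). Capitals mark CCAAT boxes and both forms of the homology region, on either strand. A match on the other strand prints as its reverse complement, ATTGG for the box. They lie at chr15:59105016-59105145 (plus strand), chr16:23678759-23678888 (plus), chr7:36389732-36389861 (plus) and chr10:128126424-128126553 (minus).
CCNB2: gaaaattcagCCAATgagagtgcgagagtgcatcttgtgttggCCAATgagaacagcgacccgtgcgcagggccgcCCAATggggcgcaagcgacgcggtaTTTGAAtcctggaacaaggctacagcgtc
PLK1: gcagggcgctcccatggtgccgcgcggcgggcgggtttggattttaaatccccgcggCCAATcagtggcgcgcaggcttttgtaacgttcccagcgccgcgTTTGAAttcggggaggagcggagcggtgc
ANLN: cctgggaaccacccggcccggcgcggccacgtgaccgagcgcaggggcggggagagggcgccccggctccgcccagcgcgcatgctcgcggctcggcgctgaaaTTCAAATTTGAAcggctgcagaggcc
MKI67: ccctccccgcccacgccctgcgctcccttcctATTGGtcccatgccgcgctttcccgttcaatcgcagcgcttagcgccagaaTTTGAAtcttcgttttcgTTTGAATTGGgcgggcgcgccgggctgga
In the MKI67 stretch the last homology region and a reversed CCAAT box overlap.

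The letters TTTGAA were found on either strand in 28 of the 42 member windows, 66.7%, against 15.2% of all 35116 windows in the table. CCAAT was found in 31 member windows, 73.8%, against 34.6% of all windows. TTCGAA was found in 3 member windows, 7.14%, against 1.45% of all. The letters GCGTG, the core that AHR and its partner ARNT bind, were in 21 member windows, 50% of them, against 36.5% of all windows and 48.0% of the windows of tested genes. The shares with CCAAT and TTTGAA were thus higher than among all windows, and the share with GCGTG was close to that of tested genes. A match of letters is a description and does not show that a factor was bound.

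In DMSO the members covered a wide range of abundance. In RPKM, a level per length of the GENCODE canonical transcript and per library size, the highest was CDC20, the APC/C activator, at 194 ± 3.70 (SD, n = 3). CCNB1, the main mitotic cyclin, followed at 159 ± 3.27, and TOP2A, the topoisomerase that untangles sister chromatids, at 131 ± 4.30. The library values of these 3 genes did not overlap one another. The lowest were KIF14, a cytokinesis kinesin, at 5.23 ± 0.275, and CENPE, a kinetochore motor, at 6.85 ± 0.430, also without overlap. Within the group of libraries the neighbours UBE2C, the ubiquitin-conjugating enzyme of the APC/C, at 97.2 ± 1.55, and TPX2, an activator of AURKA, at 93.1 ± 0.773, were separated, whereas CCNB2 at 82.5 ± 0.658, PLK1 at 83.0 ± 1.31 and BIRC5 at 83.6 ± 2.69 overlapped.

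Reads counted per library were 21397703 to 28247146, and the scaling factors were 0.988 to 1.02. CYP1A1, the standard AHR target, was at 3.05 to 3.30 CPM (counts scaled to library size) in DMSO, 409 to 438 with TCDD, 9.16 to 11.2 with kynurenine and 0.396 to 0.736 with CH223191. Of 12 colon epithelial markers, 10 had a mean above 1 CPM in every group. The fibroblast marker DCN, the T cell marker CD3D and the endothelial markers KDR and EMCN were at 0 in every library. Means above 1 CPM were found for 0 of 8 fibroblast, 3 of 9 immune and 2 to 3 of 8 endothelial markers, whose summed levels were 0.567 to 1.30, 6.14 to 16.2 and 5.24 to 7.82 CPM. The share of reads aligned to more than 1 place was 3.27 to 3.91% with TCDD and 2.63 to 3.07% in DMSO, without overlap. Counted reads, at 22834076 to 24726740 with TCDD and 26403109 to 27579937 in DMSO, did not overlap either. Nor did the share of unaligned reads, at 9.50 to 10.04% with TCDD and 8.85 to 9.47% in DMSO. The first kynurenine library and the first DMSO library held fewer reads of long transcripts than the others of their groups: the Spearman correlation across genes of transcript length with a library's deviation from the mean of the 12 was -0.37 and -0.22 in them.

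**Figure D1:**
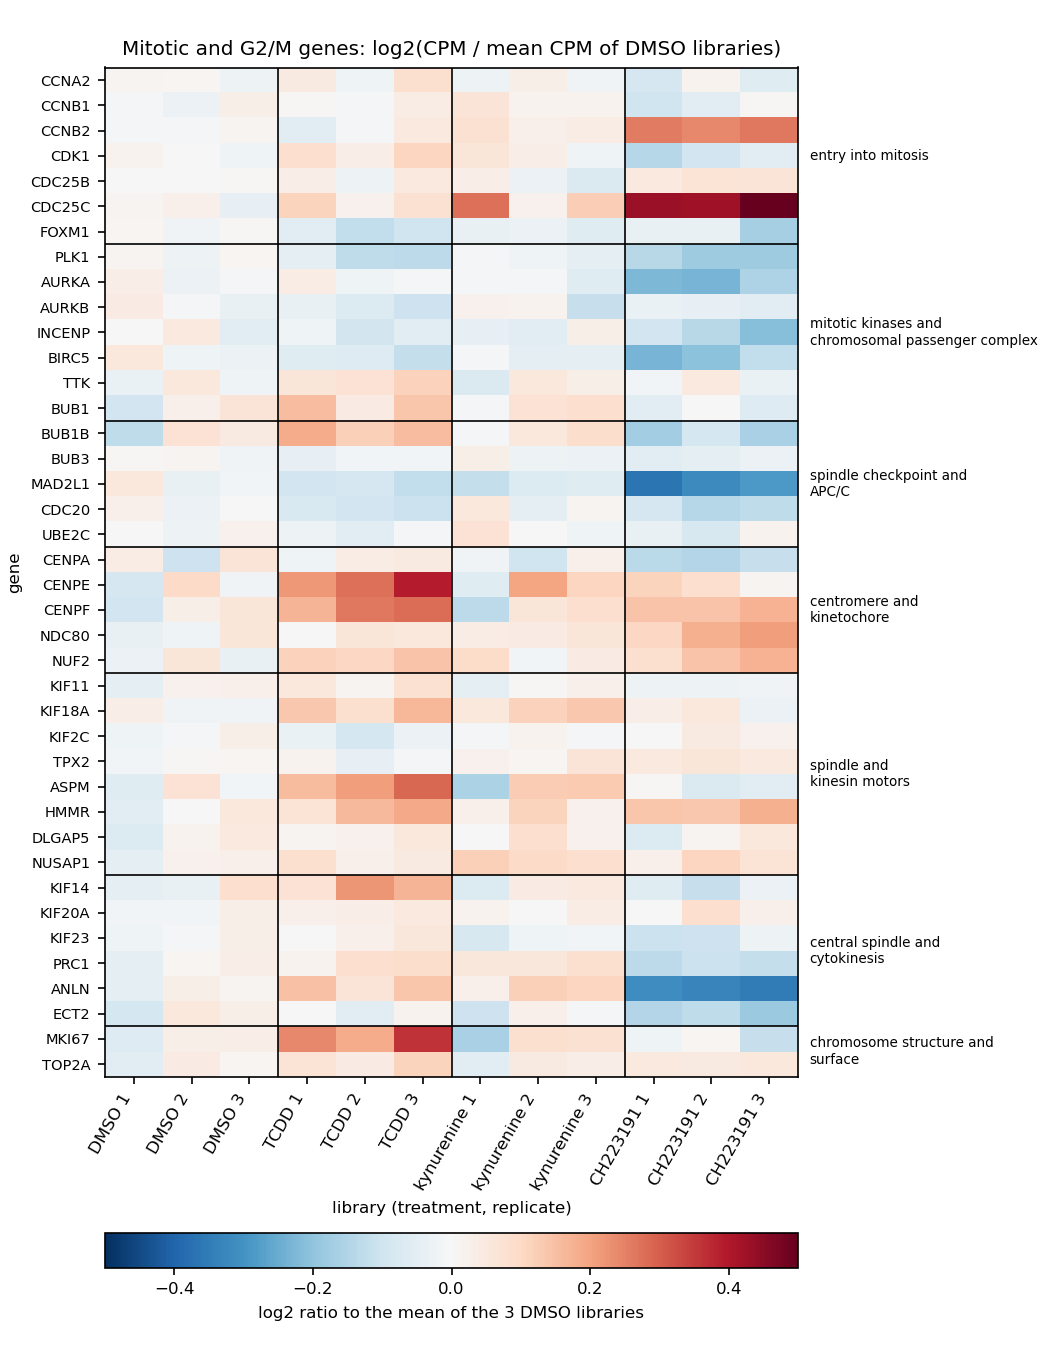
Log2 CPM of each of the 40 members in each of the 12 libraries, less the member's mean over the 3 DMSO libraries, with members ordered by role (rows) and libraries by group (columns) and colours limited to ±0.5. The CH223191 columns hold the strongest rise, at CDC25C, and the strongest falls, at ANLN and MAD2L1. The TCDD columns are highest at CENPE, MKI67, CENPF and ASPM.

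The 4 groups differed in 23 of the 40 members by edgeR's joint quasi-likelihood F test, adjusted by Benjamini-Hochberg over all tested genes and called at an adjusted p under 0.05, where 43.6% of all tested genes were called. ANLN, the actin-binding anillin of the cleavage furrow, had the smallest adjusted p, 1.0e-12. The 17 members that were not called were CCNA2, CCNB1, CDC25B, FOXM1, AURKB, TTK, BUB3, UBE2C, CENPA, KIF11, KIF2C, TPX2, DLGAP5, NUSAP1, KIF20A, KIF23 and TOP2A. They include 4 of the 7 genes of mitotic entry and 5 of the 8 of the spindle and its motors. Both are near the share of all tested genes that was not called.

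The comparison of TCDD with DMSO asks what the strong AHR agonist does to these transcripts within 1 h. Of the 40 members, 8 rose with TCDD (5.91% of all tested genes were called higher) and 1 fell (5.83% of all were called lower), and 31 did not pass. The members that rose were MKI67, CENPF, CENPE, ASPM, BUB1B, HMMR, ANLN and KIF14, which act on chromosome surfaces, kinetochores, the spindle and the cleavage furrow, and the 1 that fell was the kinase PLK1. The rises were from 8.38% for ANLN to 22.9% for CENPE, and PLK1 fell by 6.74%. DESeq2 called 7 members higher and 2 lower (5.01% and 5.29% of all tested genes). Over all 40 members the median log2 fold change was 0.03, against 0.00 over all tested genes.

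MKI67 codes for Ki-67, the proliferation marker that coats mitotic chromosomes (chr10:128096659-128126423, hg38, minus strand). Its CPM was 650.2, 693 and 694 in the DMSO libraries and 802, 773 and 872 with TCDD. The highest DMSO library lay below the lowest TCDD library, and the log2 fold change was 0.26 ± 0.05 (SE, adjusted p = 1.2e-04). CENPF, a large coiled-coil protein of the outer kinetochore (chr1:214603185-214664574), was at 319, 347 and 355 CPM in DMSO and 382, 408 and 413 with TCDD. These groups did not overlap either, and CENPF rose by 0.24 ± 0.04 (adjusted p = 1.8e-04).

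CENPE, the kinesin that carries chromosomes to the spindle equator (chr4:103105349-103198445), was at 55.2, 62.5 and 57.9 CPM in DMSO and 68.1, 70.8 and 76.9 with TCDD. Every TCDD library exceeded every DMSO library, and the log2 fold change of 0.30 ± 0.05 (adjusted p = 1.9e-04) was the largest among the members called. ASPM, a spindle pole protein (chr1:197084121-197146694), was at 132, 145 and 137 CPM in DMSO and 154, 159 and 168 with TCDD. It too was separated, and rose by 0.22 ± 0.05 (adjusted p = 0.0028). These 4 genes remained called when any 1 of the 12 libraries was left out, with adjusted p of at most 0.038, which ASPM reached.

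The other members that rose did so by less. BUB1B, the checkpoint protein BubR1, was at 109.7, 126 and 123 CPM in DMSO and 136, 130.1 and 133 with TCDD, a log2 fold change of 0.15 ± 0.04 (adjusted p = 0.013). HMMR, a spindle assembly factor, was at 85.2, 88.2 and 91.7 CPM in DMSO and 92.6, 98.9 and 101 with TCDD, or 0.14 ± 0.04 higher (adjusted p = 0.020). The groups of both genes were separated, that of HMMR by about 1 CPM.

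ANLN was at 278, 293 and 289.8 CPM in DMSO and 317, 299.98 and 316 with TCDD, a log2 fold change of 0.12 ± 0.03 (adjusted p = 0.022). KIF14 was at 36.8, 37.1 and 40.5 CPM in DMSO and 40.1, 44.5 and 42.9 with TCDD, a log2 fold change of 0.16 ± 0.05 (adjusted p = 0.042). The ANLN groups were separated, and those of KIF14 overlapped. Each of BUB1B, HMMR, ANLN and KIF14 lost its call when the first DMSO library or TCDD library 3 was left out, and without either of these libraries the number of members higher with TCDD was 4 in place of 8.

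PLK1, the kinase that triggers mitotic entry and centrosome maturation, was at 181, 176 and 181 CPM in DMSO and 174, 164 and 164 with TCDD. The groups did not overlap, and PLK1 fell by 0.10 ± 0.03 on the log2 scale (adjusted p = 0.049). It remained called in 4 of the 12 fits that left out 1 library. Members just past the threshold lay in both directions. KIF18A, a kinesin that damps chromosome movement, had a log2 fold change of 0.13 (adjusted p = 0.051), and BUB1, a checkpoint kinase, 0.11 (adjusted p = 0.059). CDC20 had -0.09 (adjusted p = 0.060) and MAD2L1 -0.10 (adjusted p = 0.062).

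**Figure D2:**
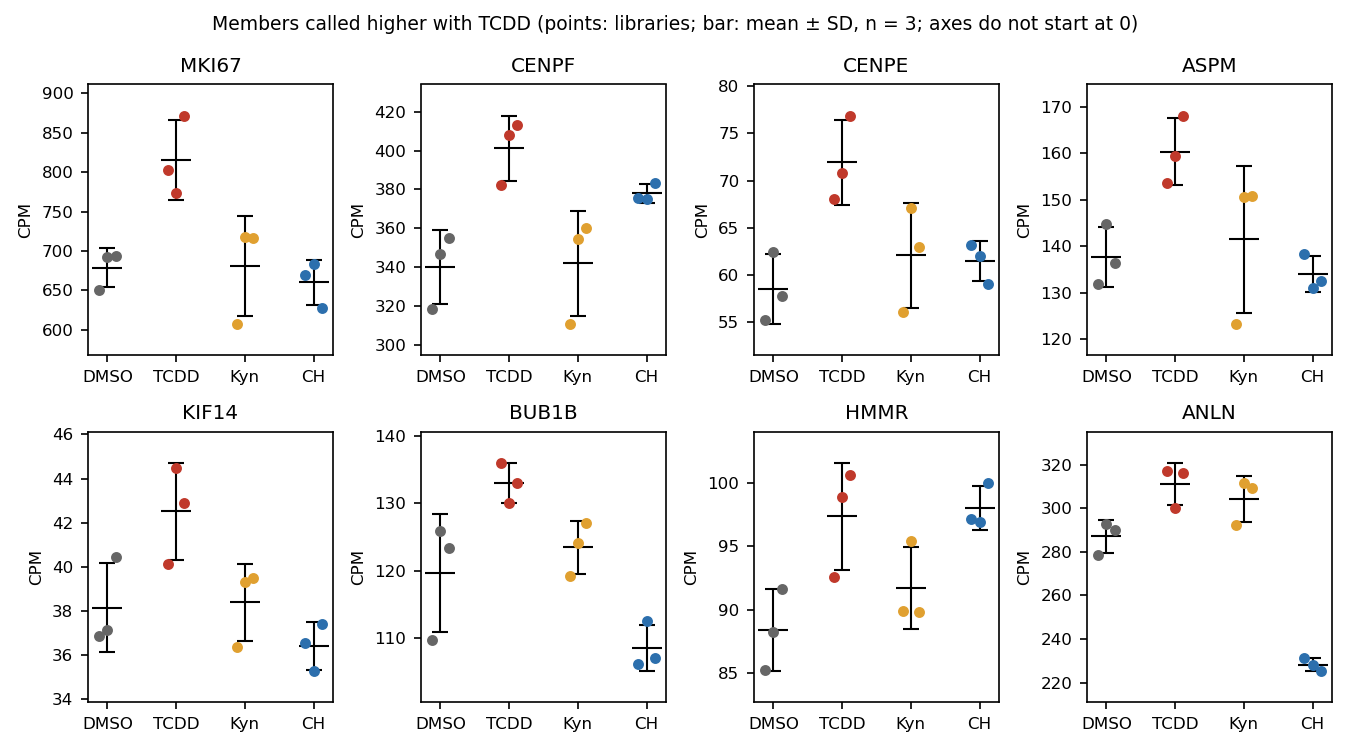
CPM of the 8 members called higher with TCDD than in DMSO in each library (points), by group (horizontal axis), with the mean and SD of 3 libraries as bars, on vertical axes that do not start at 0. All TCDD points lie above all DMSO points for CENPE, MKI67, CENPF and ASPM, while the KIF14 points overlap.

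Of the 7 mitotic entry genes, 0 were called with TCDD by edgeR or DESeq2, with 2 of the 7 at an unadjusted p under 0.05. By edgeR 5.91% of all tested genes were called higher and 5.83% lower, so 0 of 7 does not set these genes apart. CDK1 was at 132, 129.97 and 128 CPM in DMSO and 138, 133 and 139.7 with TCDD, a log2 fold change of 0.08 (adjusted p = 0.19). CCNB1 was at 322, 317 and 330.2 CPM in DMSO and 324, 321 and 332 with TCDD, with a 95% interval of the difference of -0.06 to 0.08. FOXM1, the transcription factor that acts on many of these genes, was at 207, 203 and 207 CPM in DMSO and 198, 189 and 192 with TCDD, or -0.09 on the log2 scale (adjusted p = 0.084). The CDK1 and FOXM1 libraries were separated in opposite directions without passing the test, and those of CCNB1 overlapped.

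Among the mitotic kinases and passenger proteins, AURKA, the spindle pole kinase, was at 154, 148 and 149.98 CPM with TCDD and 154, 147 and 149.8 in DMSO, a difference of 0.00 (95% interval -0.07 to 0.08). BIRC5, the passenger protein survivin, was at 206, 206 and 198 CPM with TCDD and 223, 212 and 211 in DMSO, or -0.08 on the log2 scale (adjusted p = 0.14). The AURKA libraries overlapped, and those of BIRC5 were separated without passing the test. In the checkpoint and APC/C group, MAD2L1, the checkpoint protein Mad2, had a log2 fold change of -0.10 (adjusted p = 0.062), CDC20 had -0.09 (adjusted p = 0.060) and UBE2C, at 74.3, 72.9 and 75.2 CPM against 75.6, 74.3 and 76.7, had -0.03 (adjusted p = 0.73). TOP2A was at 718, 766 and 750 CPM in DMSO and 779.9, 767 and 805 with TCDD, with a log2 fold change of 0.07 (adjusted p = 0.15). The remaining members that were not called lay between -0.07 and 0.12 on the log2 scale.

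The direction with TCDD went with transcript length, and across the members more closely with gene span (below). Of the 6 members with a canonical transcript of at least 6 kb, 5 rose: MKI67 (12.7 kb), ASPM (10.9 kb), CENPF (10.3 kb), CENPE (8.54 kb) and KIF14 (7.29 kb). The sixth, BUB3, a checkpoint protein with a transcript of 7.70 kb, had a log2 fold change of -0.02 (adjusted p = 0.71). Of the 7 members under 2 kb, which include CDC20 (1.65 kb), CCNB2 (1.49 kb) and UBE2C (0.777 kb), 0 were called by edgeR in this comparison (3 had an unadjusted p under 0.05, and DESeq2 called 1 lower), and their median log2 fold change was 0.00. The median over the 6 long members was 0.23.

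The same pattern ran through all tested genes, so it is not particular to the mitotic ones. Of 2250 tested genes with a transcript of at least 6 kb, 17.2% were called higher with TCDD and 2.58% lower, and their median log2 fold change was 0.06. Of 3230 genes under 2 kb, 1.67% were called higher and 7.93% lower, and their median was -0.04. Across the 40 members the Spearman correlation of the log2 fold change was 0.42 with transcript length, 0.67 with the span of the gene on the chromosome and -0.59 with GC content. Across 12529 tested genes with a gene model it was 0.24, 0.23 and -0.37. For kynurenine against DMSO, which shares the same control libraries, the correlation with span was 0.45 across the members and -0.01 across all tested genes. Genes of 1 fit share their libraries and are not independent replicates, so no p is given.

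The part of each of the 3 properties was not tested. They differ in single members: MKI67 has a transcript of 12.7 kb and a span of 29.8 kb, and NUF2 one of 1.96 kb and a span of 89.2 kb. Single libraries differed in the levels of the long members. The median deviation of the 6 long members from the DMSO mean was 0.16, 0.22 and 0.29 in the TCDD libraries, -0.06, 0.03 and 0.01 in the DMSO libraries and -0.10, 0.07 and 0.08 in the kynurenine libraries. The TCDD libraries were thus higher than all others for the long members. With each library's trends with GC content and length removed through offsets, 4 members rose and 2 fell with TCDD (3.66% and 5.69% of all tested genes). MKI67 then had a log2 fold change of 0.16 (adjusted p = 5.4e-04), CENPF 0.14 (adjusted p = 0.0059), CENPE 0.19 (adjusted p = 0.0018) and BUB1B 0.12 (adjusted p = 0.039).

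In that setting ASPM, at 0.10 (adjusted p = 0.085), and KIF14, HMMR, ANLN and PLK1 were no longer called. MAD2L1, at -0.16, and BUB3, at -0.10, were called lower. The median log2 fold change over all tested genes was then -0.016, against 0.001 in the main fit, so values in this setting are shifted down to that extent. MKI67, CENPF and CENPE passed without the removal, with both trends removed and with either trend alone removed. BUB1B passed in these settings other than with the GC trend alone removed. The number of counted reads and the shares of multiply aligned and unaligned reads also differed between the TCDD and DMSO libraries (above). The part of these differences in the values was not tested.

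**Figure D3:**
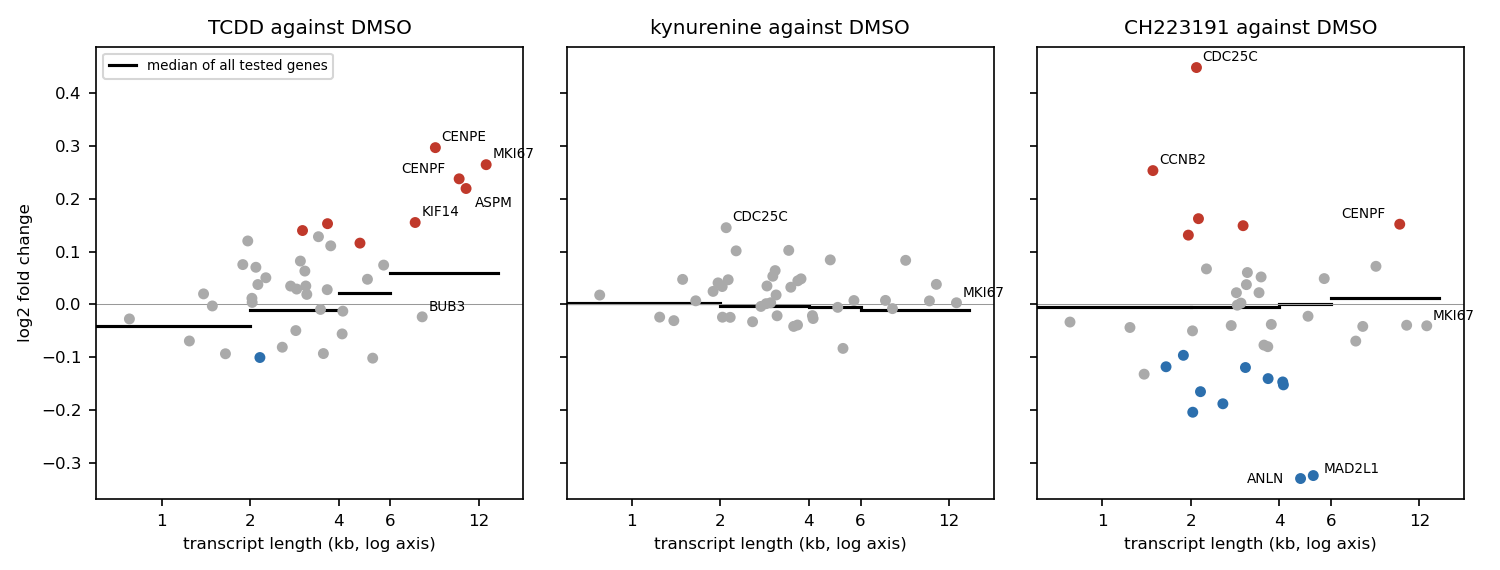
Log2 fold change against DMSO (vertical axis) and canonical transcript length in kb (horizontal log axis) of the 40 members for TCDD, kynurenine and CH223191, with called members in red (higher) or blue (lower) and others grey, and black lines for the median of all tested genes in 4 length classes. With TCDD the red points lie mostly at long transcripts and the black lines climb with length, from -0.04 to 0.06; with CH223191 called members lie at all lengths and the lines stay near 0.

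Kynurenine against DMSO asks the same of the endogenous agonist at the same dose and time. By edgeR 0 of the 40 members were called in either direction (0.154% of all tested genes were called higher and 0.140% lower), with 5 of 40 at an unadjusted p under 0.05, and DESeq2 also called 0. The smallest adjusted p was 0.38, for NUSAP1, a microtubule-bundling protein, at a log2 fold change of 0.10. The largest difference was 0.15, for CDC25C, the phosphatase that activates CDK1, with 33.0, 27.7 and 29.7 CPM against 27.5, 27.7 and 26.5 in DMSO. The kynurenine values of CDC25C spread widely and overlapped those of DMSO.

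The 95% intervals of the 40 members lay within -0.16 and 0.26 on the log2 scale, which is the size of change these libraries leave possible. MKI67 was at 607, 718 and 717 CPM with kynurenine, a log2 fold change of 0.00 with an interval of -0.09 to 0.10. The first kynurenine library was the lowest of all 12 for MKI67, CENPF and ASPM. Without it MKI67 differed from DMSO by 0.08, CENPF by 0.07, ASPM by 0.13 and CENPE by 0.15, and 0 members were called by edgeR in any of the 22 alternatives run, the smallest adjusted p being 0.23.

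Of the other genes of mitotic entry, CCNB2 had a log2 fold change of 0.05 with kynurenine (adjusted p = 0.90), its libraries lying above those of DMSO. CDK1 was at 135, 133 and 128 CPM, CCNB1 at 338, 327 and 327, and FOXM1 at 201, 201 and 197, with log2 fold changes of 0.02, 0.03 and -0.04. CDK1 and CCNB1 overlapped their DMSO libraries, whereas FOXM1 lay below all 3 of its own without passing (adjusted p = 0.91).

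Among the kinases and APC/C genes, PLK1 was at 179, 177 and 173 CPM, AURKA at 149.6, 149.8 and 144 and BIRC5 at 215, 209 and 208. UBE2C was at 79.4, 75.4 and 74.5 CPM, and CENPF and TOP2A were at 311, 355 and 360.3 and at 715, 769 and 761. Each of these 6 members overlapped DMSO, and their log2 fold changes lay between -0.03 and 0.02.

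The comparison of CH223191 with DMSO asks what the antagonist does in cells with no added agonist. Of the 40 members, 6 rose (15.9% of all tested genes were called higher) and 11 fell (16.9% were called lower). The members that rose were CDC25C, CCNB2, NDC80, CENPF, HMMR and NUF2. Those that fell were ANLN, MAD2L1, AURKA, BIRC5, PLK1, ECT2, INCENP, BUB1B, PRC1, CDC20 and CDK1. By role, 4 of 7 kinase and passenger genes, 3 of 5 checkpoint and APC/C genes and 3 of 6 cytokinesis genes fell, and 3 of 5 centromere and kinetochore genes rose. DESeq2 gave the same counts, 6 higher and 11 lower (12.8% and 15.2% of all tested genes). With trends of GC content and length removed they were 5 and 16 (14.1% and 23.9%). In the main fit the median of all 40 was -0.04, against 0.00 over all tested genes. With both trends removed these medians were -0.07 and -0.02.

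CDC25C and CCNB2, which act on the same step of mitotic entry, had the largest rises. CDC25C (chr5:138285269-138338355) was at 36.7, 36.5 and 38.5 CPM with CH223191 against 27.5, 27.7 and 26.5 in DMSO, far apart relative to their spread. The log2 fold change was 0.45 ± 0.06 (adjusted p = 5.7e-08), or 36.5% higher. CCNB2, a B-type cyclin (chr15:59105126-59125045), was at 147, 145 and 147 CPM with CH223191 and 122, 122 and 124 in DMSO. It was separated as well, and rose by 0.25 ± 0.04 (adjusted p = 6.1e-07).

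Their partners did not follow. CDK1 was at 118, 122 and 125 CPM with CH223191, below its 3 DMSO libraries, and fell by 0.10 ± 0.04 on the log2 scale (adjusted p = 0.039). It was no longer called in 6 of the 12 fits without 1 library, among them each fit without 1 of the 3 DMSO libraries. CCNB1 was at 302, 311 and 324 CPM with CH223191, overlapping DMSO, and had a log2 fold change of -0.05 (adjusted p = 0.26). FOXM1 was at 200.2, 201 and 183 CPM, a log2 fold change of -0.08 (adjusted p = 0.091). With trends of GC content and length removed, CCNB1 (-0.09, adjusted p = 0.012) and FOXM1 (-0.09, adjusted p = 0.015) were called lower, as were CENPA, KIF23 and BUB3. The median log2 fold change over all tested genes was then -0.023, against 0.001 in the main fit. Of all tested genes 23.9% were then called lower, against 16.9%. Values with CH223191 are thus shifted down to that extent in this setting, and the part of the shift in these calls was not tested.

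Both subunits of the NDC80 complex that are members, which bind microtubules at the kinetochore, rose. NDC80 was at 48.2, 50.9 and 52.0 CPM with CH223191 and 43.7, 44.2 and 46.8 in DMSO (0.16 ± 0.05, adjusted p = 0.0050). NUF2 was at 49.8, 52.1 and 53.1 CPM against 46.2, 49.2 and 46.0 (0.13 ± 0.05, adjusted p = 0.023). The libraries of both genes were separated, those of NUF2 by less than 1 CPM, and NUF2 was not called without DMSO library 1 or 3 or CH223191 library 2 or 3, or with trends removed (adjusted p = 0.077 with both and 0.053 with length alone).

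CENPF was at 375, 375 and 384 CPM with CH223191 (0.15 ± 0.04, adjusted p = 0.0057), above its DMSO libraries. Without the first DMSO library, where it was lowest, its adjusted p was 0.069. HMMR was at 97.2, 96.9 and 100.1 CPM (0.15 ± 0.04, adjusted p = 0.0043), also without overlap.

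ANLN and MAD2L1 had the largest falls. ANLN (chr7:36389821-36453791) was at 231, 228 and 225 CPM with CH223191 and 278, 293 and 289.8 in DMSO, and fell by 0.33 ± 0.03 on the log2 scale (adjusted p = 1.9e-09). MAD2L1 (chr4:120055623-120066858) was at 104, 108 and 110.1 CPM against 139, 130.9 and 133, and fell by 0.32 ± 0.04 (adjusted p = 9.2e-09). Both were about 20% lower, with no overlap of libraries.

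AURKA (chr20:56369389-56392337) was at 129, 128 and 135 CPM with CH223191 and 154, 147 and 149.8 in DMSO (-0.20 ± 0.04, adjusted p = 2.4e-05). BIRC5 (chr17:78214186-78225636) was at 183, 186 and 198 CPM against 223, 212 and 211 (-0.19 ± 0.04, adjusted p = 7.5e-05). PLK1 was at 163, 158 and 159 CPM against 181, 176 and 181 (-0.17 ± 0.03, adjusted p = 2.5e-04). Each of these groups of CH223191 libraries lay wholly below DMSO.

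ECT2, the exchange factor that activates RhoA for cleavage, was at 294, 298 and 286 CPM with CH223191 and 307, 338 and 332 in DMSO (-0.15 ± 0.04, adjusted p = 0.0016). CDC20 was at 302, 289 and 292 CPM against 325, 313 and 321 (-0.12 ± 0.03, adjusted p = 0.0055). Both were separated from DMSO. INCENP, the scaffold of the passenger complex, had a log2 fold change of -0.15 (adjusted p = 0.0038), BUB1B of -0.14 (adjusted p = 0.0099) and PRC1, which bundles the central spindle, of -0.12 (adjusted p = 0.0090). BUB1B overlapped DMSO and lost its call in 3 of the 12 fits without 1 library, and PRC1 lost it without DMSO library 3.

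MKI67, TOP2A and UBE2C were not called with CH223191. MKI67 was at 669, 683 and 627 CPM, a log2 fold change of -0.04 (95% interval -0.13 to 0.05), and was called lower with the length trend alone removed (-0.08, adjusted p = 0.047). In that setting the median over all tested genes was also shifted down, to -0.023 from 0.001. TOP2A was at 771, 768 and 773 CPM, a difference of 0.05 (interval -0.02 to 0.12), and UBE2C at 73.7, 71.5 and 76.5 against 75.6, 74.3 and 76.7, a difference of -0.03 (interval -0.11 to 0.05). Transcript length did not order the changes with CH223191: the Spearman correlation was -0.05 over the 40 members and 0.03 over all tested genes. With gene span it was 0.29 over the members and 0.06 over all tested genes.

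**Figure D4:**
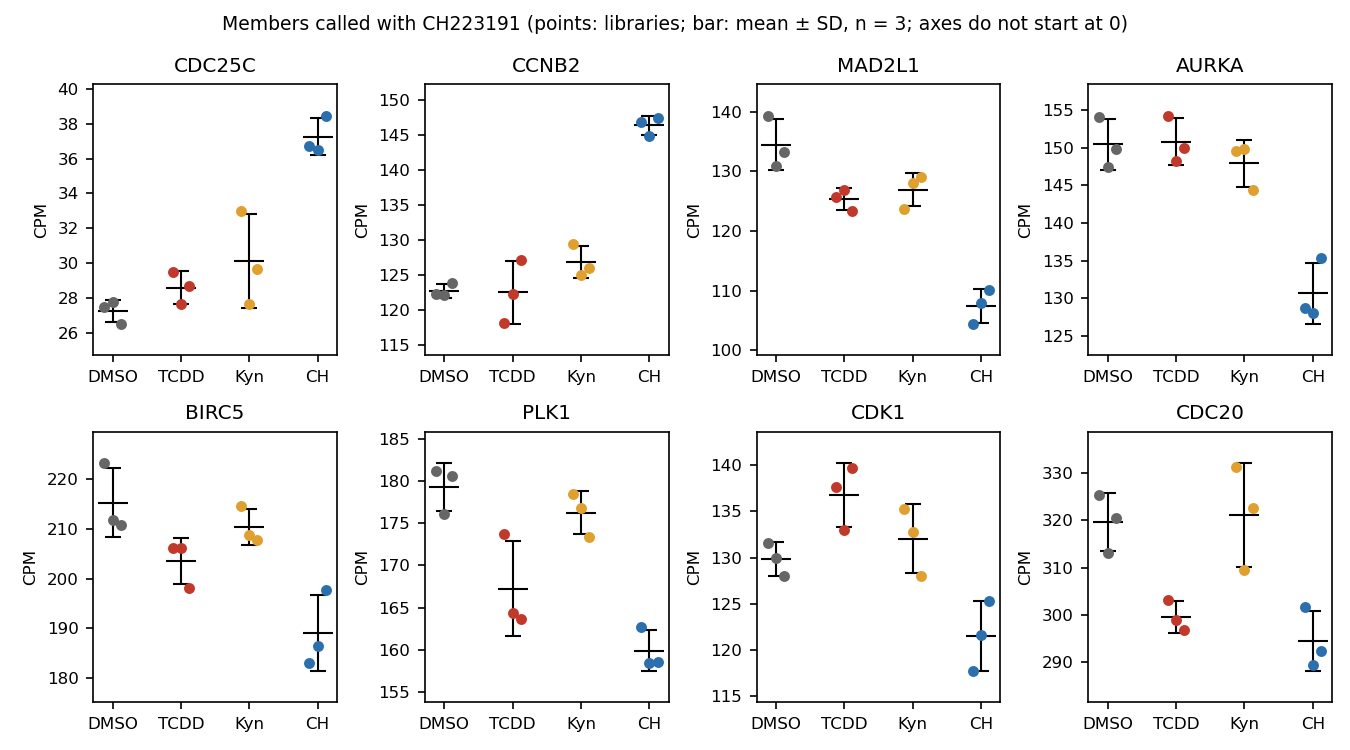
CPM of 8 members called between CH223191 and DMSO in each library (points), by group (horizontal axis), with the mean and SD of 3 libraries as bars, on vertical axes that do not start at 0. CDC25C and CCNB2 lie higher with CH223191 than in the 9 other libraries, and MAD2L1 and AURKA lie lower than in the 9 others.

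Among promoters, TTTGAA was in the windows of all 6 members that rose with CH223191 and have a window, of all 9 that fell and have one, and of 10 of the 18 that were not called and have one. The letters were thus present both where transcripts rose and where they fell.

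TCDD and kynurenine, set directly against each other at the same dose and time, differed in 5 members (9.19% of all tested genes were called). MKI67 (0.26 ± 0.05, adjusted p = 1.3e-04), CENPF (0.23 ± 0.04, adjusted p = 2.6e-04), CENPE (0.21 ± 0.05, adjusted p = 0.0077) and ASPM (0.18 ± 0.05, adjusted p = 0.017) were higher with TCDD (5.10% of all tested genes were called higher). CDC20 was lower, at 303, 299 and 297 CPM against 331, 309 and 323 with kynurenine (-0.10 ± 0.03, adjusted p = 0.0495, with 4.09% of all tested genes called lower). These libraries did not overlap. MKI67 and CENPF were called without any 1 library, whereas CENPE and ASPM lost the call without the first kynurenine library or TCDD library 3, and CDC20 remained called in 3 of 12 such fits. ASPM was also not called with DESeq2, nor with either trend or both trends removed. CENPE was not called with the GC trend or both trends removed, and CDC20 was called in 5 of 10 other alternatives. DESeq2 called 3 members higher and 1 lower (4.24% and 3.79% of all tested genes).

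TCDD against CH223191 gave 15 members higher with TCDD (19.0% of all tested genes) and 3 lower (18.1%). The 3 lower were CCNB2 (-0.26), CDC25C (-0.38) and NDC80 (-0.12). CCNB2 and CDC25C were called in all 22 alternatives, whereas NDC80 was not called without TCDD library 1 or CH223191 library 2 or 3, with DESeq2 or with the length trend alone removed. ANLN differed most, by 0.45 ± 0.03 (adjusted p = 7.2e-13), followed among the higher members by MKI67 with 0.31, BUB1B with 0.29 and ASPM with 0.26. All members of the cytokinesis group other than KIF20A were higher with TCDD: KIF14, KIF23, PRC1, ANLN and ECT2, of which KIF23 was called in 9 of 12 fits without 1 library. This test compares the groups without DMSO, since the fold changes of both chemicals against DMSO share the same 3 control libraries.

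Against kynurenine, CH223191 differed in a similar number of members. With kynurenine 12 members were higher (16.6% of all tested genes) and 4 were lower (16.4%). CCNB2 (-0.21), CDC25C (-0.30), NDC80 (-0.12) and CENPF (-0.15) were the members lower than with CH223191. CCNB2 and CDC25C were called in all 22 alternatives. CENPF was not called without the first kynurenine library (-0.08, adjusted p = 0.095), and NDC80 was called in 7 of 12 fits without 1 library and in 4 of 10 other alternatives. ANLN (0.41), MAD2L1 (0.24) and BUB1B (0.19) were the most different of the others. CCNB1, at 0.08 (adjusted p = 0.049), was called in this comparison alone among the 6 and remained called in 3 of 12 fits without 1 library.

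**Figure D5:**
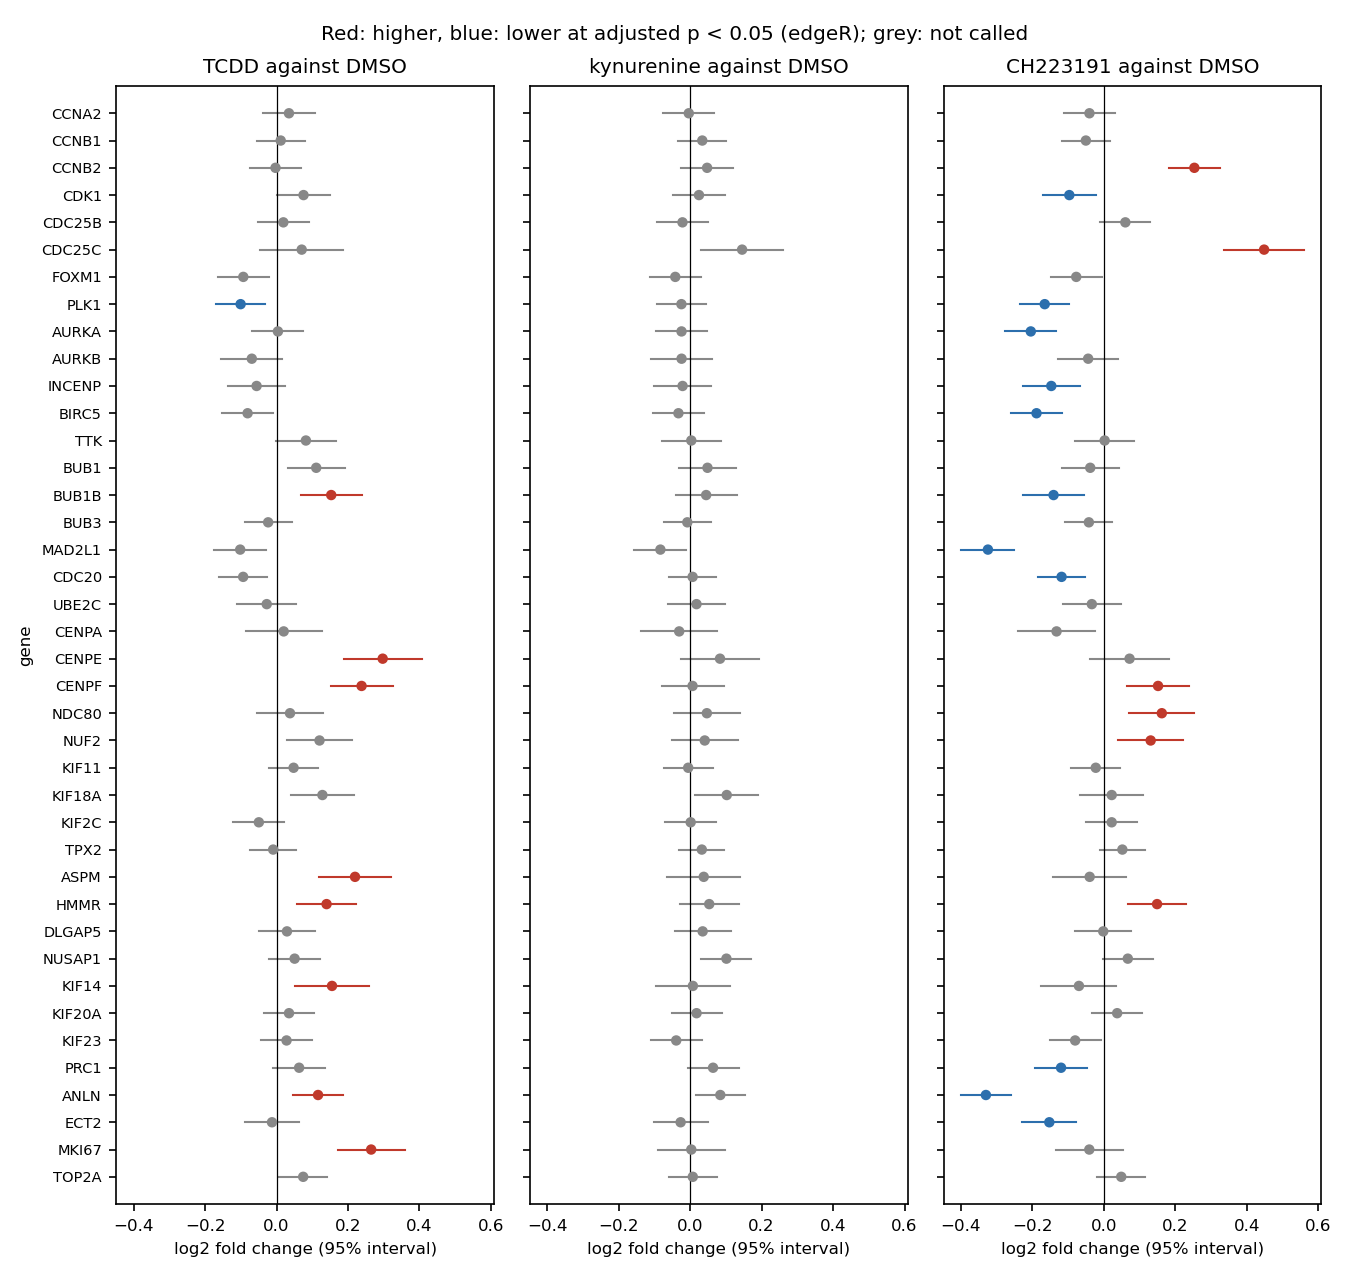
Log2 fold change with its 95% interval (horizontal axis) of each of the 40 members, by role (rows), for TCDD, kynurenine and CH223191 against DMSO, with called members in colour. The kynurenine intervals all lie within -0.16 and 0.26, the TCDD calls are mostly to the right of 0, and the CH223191 calls lie on both sides.

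Of 74 further mitotic genes, a list that holds none of the 40, 6 rose and 3 fell with TCDD, 0 were called with kynurenine by edgeR or DESeq2 (3 had an unadjusted p under 0.05), and 4 rose and 31 fell with CH223191. Of the list, 8.11% was called higher and 4.05% lower with TCDD, beside 5.91% and 5.83% of all tested genes, and 5.41% higher and 41.9% lower with CH223191, beside 15.9% and 16.9%. With kynurenine 0.294% of all tested genes were called by edgeR, so 0 of the list is near that share. HJURP, which loads the centromeric histone CENP-A, rose by 0.26 with TCDD (adjusted p = 9.8e-06), and SGOL2, a shugoshin that protects cohesion, by 0.24 (adjusted p = 1.3e-04). With CH223191, CENPO of the inner kinetochore fell by 0.37 (adjusted p = 9.8e-07) and CDCA5, the cohesion factor sororin, fell by 0.28 (adjusted p = 8.5e-07). The median of the 74 genes with CH223191 was -0.10, against -0.04 for the 40 members and 0.00 for all tested genes.

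Of 17 APC/C subunits and coactivators, 2 rose (11.8%) and 7 fell (41.2%) with CH223191, beside 15.9% and 16.9% of all tested genes. With TCDD ANAPC11 was the 1 that passed (-0.17, adjusted p = 0.029), so that 5.88% of the list was called lower, beside 5.83% of all tested genes. FBXO5, the APC/C inhibitor EMI1, fell by 0.27 with CH223191 (adjusted p = 7.5e-05), and UBE2S, the enzyme that extends ubiquitin chains on the APC/C, fell by 0.26 (adjusted p = 7.7e-06). Of 24 regulators of G2/M genes, 4 fell with TCDD (16.7%, beside 5.83% of all tested genes) and 5 rose and 10 fell with CH223191 (20.8% and 41.7%, beside 15.9% and 16.9%). PKMYT1, a kinase that holds CDK1 inactive, fell by 0.25 with TCDD (adjusted p = 1.1e-04) and by 0.30 with CH223191 (adjusted p = 7.8e-07), and MYBL2, which codes for B-MYB, fell by 0.17 with TCDD (adjusted p = 0.0019).

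Where the strand setting of the counting is unknown, reads of overlapping genes cannot be told apart. PRC1 shares 38.8% of its transcript with PRC1-AS1 on the opposite strand, which was counted at 0.073 CPM, and FOXM1 shares 22.0% with ITFG2, counted at 8.75 CPM, so that values of FOXM1 are uncertain to that extent. CCNA2 shares 9.24% with EXOSC9, and BUB1B, PLK1, HMMR and KIF20A share less than 5% with a neighbour. Annotated pseudogenes exist for 10 members, among them MKI67, AURKA, CCNB2 and UBE2C, and reads that fit both places equally well are uncertain.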

How the data were processed

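Poly(A) RNA of 12 DLD1 libraries was analysed. The authors deposited raw counts of reads for each gene symbol. Per the submitters' processing notes, reads were trimmed with Trim Galore, aligned to hg38 with STAR 2.7.2b, sorted with SAMtools 1.9 and counted with HTSeq; the labels' protocol names another STAR release and does not name CH223191. The strand setting is not given in the sources used here. Groups came from the labels, and 0 columns were left unused. HTSeq's summary counters were kept out of totals and tests: reads in no gene made up 6.59 to 8.48% of a library and those aligned to more than 1 place 2.63 to 3.91%.

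Counts were fitted with edgeR 4.0.16 (limma 3.58.1, R 4.3.3): filterByExpr with a minimum count of 10 (13619 genes), TMM scaling, 1 coefficient per group over all 12 libraries and no block. Groups were compared in pairs with quasi-likelihood F tests, with p-values adjusted by Benjamini-Hochberg over all tested genes of a comparison, with a call at an adjusted p under 0.05. SE is the size of the log2 fold change divided by the square root of F. Depth was 21397703 to 28247146 counted reads, with a common biological coefficient of variation of 3.22%. Transcript lengths, spans and GC content came from GENCODE 44 on hg38 (23161 symbols matched), and promoter windows from RefSeq GRCh38.p14. The procedure was tested on simulated data.

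Within groups the variance of counts was 1.76 to 4.64 times Poisson noise, so no library was a copy of another of its group. Alternatives were DESeq2 1.42.0, RLE factors or library totals as scaling, a filter of at least 5 CPM in 3 libraries or none, the replicate number as a block, a fit to only the groups compared, GC and length trends removed together, and each library left out; removing each trend alone was added after the data were seen.

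The 40 members and the other lists were chosen with earlier results of these data known. Values in every library of the groups compared are given for members called with TCDD or kynurenine. The same holds for the 6 called of smallest p in each direction with CH223191. Values in all 12 libraries are given for 11 fixed names (MKI67, CENPF, TOP2A, CCNB1, CDK1, PLK1, AURKA, CDC20, BIRC5, UBE2C and FOXM1). Up to 4 called genes of smallest p are named from another list.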

Additional observations from a re-analysis of the deposited data

How the results depend on the processing

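Against DMSO, the smallest member changes called with these depths and 3 libraries a group had a size of 0.10 on the log2 scale. With TCDD against DMSO, the number of members lower was 0 with RLE factors, with library totals, without a low-count filter, with only the groups compared and with the replicate block (which left 8 higher), and 2 with DESeq2 and with the length trend or both trends removed; the number higher was 4 with the GC trend or both trends removed. With TCDD against kynurenine, the number lower was 0 with library totals, with only the groups compared, and with the GC or the length trend alone removed, and the number higher was 2 with the GC trend or both trends removed. With library totals alone 5 members were lower in TCDD against CH223191 and 7 were lower in kynurenine against CH223191. With both trends removed the split with CH223191 was 5 higher and 16 lower, against 6 and 11, and among all genes 1927 higher and 3249 lower. With TCDD it was 499 and 775 among all genes. The median log2 fold change over all tested genes was then -0.023 with CH223191 and -0.016 with TCDD, against 0.001 for both in the main fit. Same-numbered libraries of different groups did not deviate together (r from -0.055 to 0.037 in 18 pairs, and -0.053 to 0.083 in 36 others), so the numbers do not pair the libraries.

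With 1 library left out, members higher with TCDD numbered 4 to 10 and lower 0 to 3, and TCDD against kynurenine gave 2 to 5 higher and 0 to 1 lower. Other counts stayed within 1.5 times: 4 to 6 higher and 8 to 12 lower with CH223191, 13 to 16 and 2 to 3 for TCDD against CH223191, 10 to 14 and 3 to 4 for kynurenine against CH223191, 20 to 23 in the joint test and 0 with kynurenine. Of the single member values against DMSO, 2536 kept their side of the threshold, 43 gained a call and 61 lost one, and none that was called in both settings changed sign. The cause of these shifts was not tested.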

Other observations

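Of 32 listed genes of the preceding step, G1/S and DNA replication, 23 fell and 1 rose with CH223191, beside 16.9% and 15.9% of all tested genes. By edgeR, CDC25A, the phosphatase that activates CDK2, fell by 0.56 on the log2 scale (adjusted p = 3.2e-14), CCNE2, a cyclin of S phase entry, fell by 0.45 (adjusted p = 8.2e-09), UHRF1, which maintains DNA methylation at replication, fell by 0.39 (adjusted p = 1.2e-10) and RRM2, a ribonucleotide reductase subunit, fell by 0.29 (adjusted p = 5.0e-09). With TCDD 6 of the 32 fell and 0 rose by edgeR and by DESeq2 (13 had an unadjusted edgeR p under 0.05), beside 5.83% and 5.91% of all tested genes, among them the licensing factor CDT1, which fell by 0.25 (adjusted p = 4.3e-04), and the helicase subunit MCM7, which fell by 0.14 (adjusted p = 0.0019). With kynurenine 0 of the 32 were called by edgeR or DESeq2, with 5 at an unadjusted p under 0.05. This is near the share of all tested genes called by edgeR with kynurenine, 0.294%.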
